A study of Mus musculus with 6 samples.

Results

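Myeloid fate in blood progenitors is set by a small circuit of transcription factors, and the genes of 9 of them are described here in bone marrow cells of p65 knockout and p65 wild-type mice. They are 5 genes of the C/EBP family (Cebpa, Cebpb, Cebpd, Cebpe and Cebpg), the PU.1 gene Spi1, and Irf8, Gfi1 and Klf4. The genes were chosen by name, with earlier results of these data known. All 9 were found among the 19938 genes measured, each through 1 array row that carries no other gene symbol. Arrays came from 3 mice labelled as p65 knockout (KO) and 3 labelled as p65 wild-type (WT), 1 array per mouse. RelA, as p65 is also called, belongs to the transcription factor NF-κB, and the series title places its deletion in the hematopoietic compartment. The sources used here give neither the driver of the deletion nor the strain, age or sex of the mice. One gate was used for both groups, c-kit+ and Sca-1+ cells without Flk2 or lineage markers, which enriches for stem cells and the earliest progenitors. Values are log2 signals from RMA, a procedure that subtracts background, normalizes arrays and summarises probes, so that a step of 1 is a doubling of signal.

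C/EBP proteins bind DNA as pairs through a basic leucine zipper, and C/EBPα is required for stem and progenitor cells to form granulocyte-monocyte progenitors. PU.1, an ETS-family protein, opens many of the same target genes and is antagonised by the erythroid factor GATA1. IRF8 steers the shared progenitor to monocytes and dendritic cells, largely in a complex with PU.1, while GFI1 represses the monocyte programme and favours granulocytes. C/EBPε acts late, during granule formation in neutrophils, and KLF4 acts downstream of PU.1 and IRF8 in monocytes.

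The start-site windows of 3 of these genes are shown because they belong to the member with the largest change, the founding family member and the granulocyte repressor. Each window runs from 250 bases before to 50 bases after the RefSeq transcript start on assembly GRCm38.p6 and reads along the gene's own strand. Such windows were matched for 6 of the 9 genes (8 windows in all), and Cebpd, Cebpe and Spi1 had no entry. Capitals mark matches to the motifs named after the sequences.
Irf8, chr8:120736108-120736407, plus strand: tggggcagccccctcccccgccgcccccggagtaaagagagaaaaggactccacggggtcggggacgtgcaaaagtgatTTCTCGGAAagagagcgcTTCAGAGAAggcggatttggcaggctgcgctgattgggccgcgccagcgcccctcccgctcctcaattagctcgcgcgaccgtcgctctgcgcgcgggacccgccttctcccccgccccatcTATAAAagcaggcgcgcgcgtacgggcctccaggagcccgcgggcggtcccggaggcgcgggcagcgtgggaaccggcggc
Cebpa, chr7:35119043-35119342, plus strand: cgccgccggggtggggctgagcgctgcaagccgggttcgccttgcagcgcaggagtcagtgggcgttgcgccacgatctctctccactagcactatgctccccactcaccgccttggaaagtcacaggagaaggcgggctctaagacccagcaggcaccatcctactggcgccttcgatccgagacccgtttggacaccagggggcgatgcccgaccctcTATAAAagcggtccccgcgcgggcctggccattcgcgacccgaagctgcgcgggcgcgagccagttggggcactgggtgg
Gfi1, chr5:107725756-107726055, minus strand: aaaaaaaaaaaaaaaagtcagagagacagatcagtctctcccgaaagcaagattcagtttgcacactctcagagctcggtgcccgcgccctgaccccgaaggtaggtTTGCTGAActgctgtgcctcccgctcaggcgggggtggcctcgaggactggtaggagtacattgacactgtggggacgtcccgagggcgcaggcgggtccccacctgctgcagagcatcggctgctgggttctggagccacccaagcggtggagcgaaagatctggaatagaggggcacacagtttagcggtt
Motifs were searched on both strands. The Irf8 window shown holds TTCNNNGAA, the form of a STAT-binding GAS element, at 2 places that begin 171 and 153 bases before the start. Of all 32851 windows 8.3% hold this motif. A TATAAA box lies 31 bases before the start of Irf8 and 30 bases before that of Cebpa, and 13.6% of all windows hold these letters. In Cebpb they occur only after the transcript start. The Gfi1 window shown holds TTGCNNAA, a C/EBP-type motif, 143 bases before the start, against 10.8% of all windows. Irf8 and Gfi1 each have another window, at a different start, that is not shown and holds none of the motifs searched. The PU.1-type motif GAGGAA, found in 28.3% of all windows, and the NF-κB consensus, found in 4.51%, occur in 0 of the 8 windows of these genes. None of the marked matches overlap each other, and TTCNNNGAA reads the same way on both strands. An absent match says only that those letters are not in these windows.

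The arrays set limits that touch every value below. The array of WT replicate 1 was the least like the others, with a correlation over all rows of 0.924 to 0.943 with them, against 0.974 to 0.989 among the rest. Array SDs were 2.26 to 2.29 in KO mice and 2.03 to 2.22 in WT mice, so signal range and genotype go together and cannot be told apart. Brighter genes had higher fold changes, with a median log2 fold change of 0.30 in the brightest of 3 equal groups of genes, which holds Cebpa, Cebpg, Spi1 and Irf8, and of 0.13 there without WT replicate 1. The median was -0.09 in the group of intermediate signal, which holds Cebpb, Cebpd, Cebpe, Gfi1 and Klf4. In the dimmest group, which holds no member, it was -0.22, or -0.09 without WT replicate 1. Rela, the gene of p65, had log2 signals of 7.33, 7.48 and 7.35 in KO mice and 7.52, 7.89 and 7.92 in WT mice. Its KO values lay below all WT values, with a log2 fold change of -0.39 that missed an adjusted p of 0.05 over all genes (limma adjusted p = 0.209). Without WT replicate 1 it was -0.51 (adjusted p = 0.04). Rela therefore checks the labels only weakly. Kit, the c-kit receptor gene of the gate, had a log2 fold change of -0.30 that did not pass the threshold, though it reached -0.48 without WT replicate 1, just past it (adjusted p = 0.04999). The receptor gene of Flk2, Flt3, had signals of 7.39 to 7.94 in KO mice and 7.31 to 8.08 in WT mice. The gate is negative for Flk2, but the size of an array signal depends on the probes, so these values do not test the gate. The Sca-1 gene Ly6a was not analysed here.

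Irf8 and Cebpe rose in p65 KO cells, and 6 further members had every KO value above every WT value without passing the threshold. At an adjusted limma p under 0.05, computed over all genes, 2 of the 9 were higher in KO and 0 lower. Of all genes 0.687% were called higher, 0.13% lower and 0.818% in either direction. At an unadjusted p under 0.05 there were 8 of the 9 members, against 21.6% of all genes. The KO values of 8 genes lay above all their WT values, where 19.2% of all genes showed this and 15.4% showed the opposite. The median log2 fold change of the 9 genes was 0.75, against -0.04 over all genes tested. The 9 genes were chosen with earlier results of these arrays known, so these shares are no independent evidence of a direction. Klf4 was the exception, with overlapping groups. The same 2 members were called with the replicate number as a block, where 1.41% of all genes were higher. Irf8 alone was called under quantile (0.431% of all genes higher) and cyclic loess normalization (0.747%). Cebpa and Cebpd joined without WT replicate 1, making 4 members against 3.28% of all genes, and also without the dimmest of 3 equal groups of genes, where 3.19% were higher. With array weights 6 members were called, against 5.6% of all genes. In sorted bulk cells, more cells that express a gene and more RNA of it per cell cannot be told apart.

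**Figure D1:**
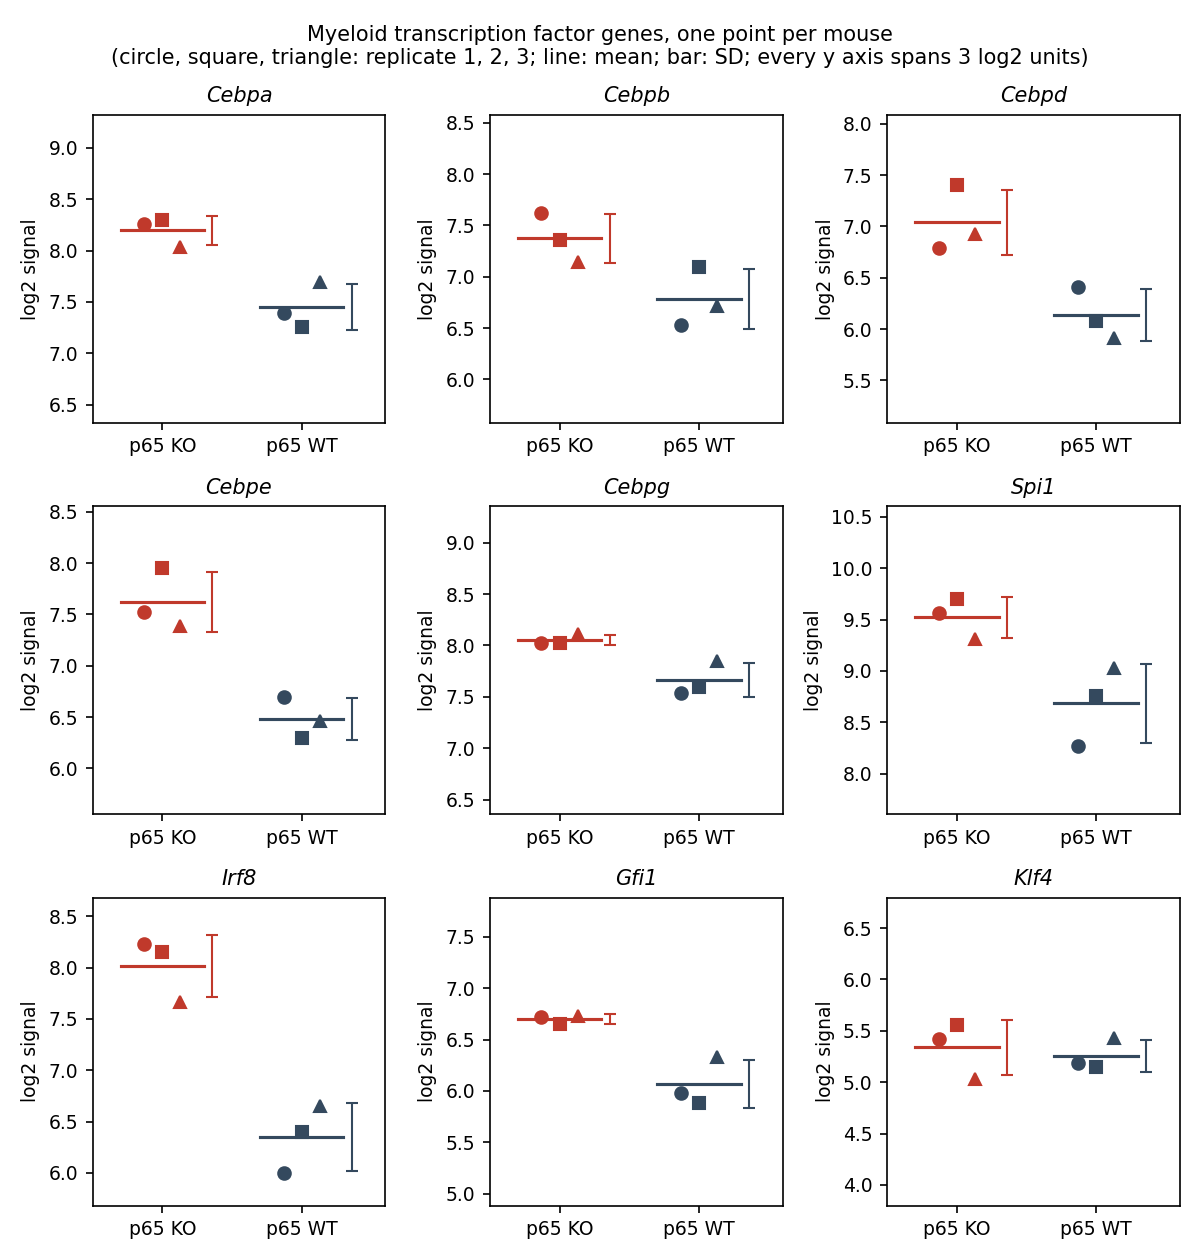
Log2 signal (y axis, 3 log2 units in every panel) of each of the 9 genes in the 3 KO mice (red, left) and the 3 WT mice (dark, right), with circle, square and triangle for replicates 1, 2 and 3, a line at the mean and a bar of 1 SD. The groups are widest apart for Irf8 and Cebpe, touch most closely for Cebpb, and overlap for Klf4.

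Irf8, the monocyte and dendritic cell factor, had log2 signals of 8.23, 8.15 and 7.66 in KO mice, against 6.00, 6.40 and 6.65 in WT mice. All KO values were above all WT values, with a gap of 1.01 between the lowest KO mouse and the highest WT mouse, which exceeded the whole range within KO (0.56) or within WT (0.65). Irf8 averaged 8.01 ± 0.31 in KO cells and 6.35 ± 0.33 in WT cells (SD, n = 3 each), a rise of 3.17-fold, or 1.67 in log2 units (SE 0.22), at a limma adjusted p of 0.0213. It ranked 52 of 19938 genes by p. The call held without WT replicate 1, where the log2 fold change was 1.49 (adjusted p = 0.0152), and with cyclic loess normalization, which removes trends with signal level (1.51, adjusted p = 0.0149). It was lost when any other array was left out, with adjusted p of 0.152, 0.151 and 0.0504 without KO replicates 1, 2 and 3 and of 0.0588 and 0.061 without WT replicates 2 and 3, while the log2 fold change stayed between 1.56 and 1.84.

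Cebpe, the factor of late granulocyte maturation, had log2 signals of 7.52, 7.95 and 7.39 in KO mice and 6.70, 6.29 and 6.46 in WT mice. The lowest KO mouse lay 0.69 above the highest WT mouse. The mean was 7.62 ± 0.29 in KO cells and 6.48 ± 0.20 in WT cells (SD, n = 3 each), and Cebpe rose 2.20-fold, or 1.14 in log2 units (SE 0.19), at a limma adjusted p of 0.0474. This call sat close to the threshold. It was lost under quantile normalization (log2 fold change 1.06, adjusted p = 0.0659) and cyclic loess normalization (1.00, adjusted p = 0.0721). Leaving out single arrays other than WT replicate 1 also ended it, with adjusted p of 0.229, 0.224 and 0.164 without KO replicates 1, 2 and 3 and of 0.0829 and 0.0878 without WT replicates 2 and 3. Without WT replicate 1 the log2 fold change was 1.24 (adjusted p = 0.0205).

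Cebpa, the gene of the factor that opens the granulocyte-monocyte route, had log2 signals of 8.26, 8.30 and 8.04 in KO mice and 7.39, 7.26 and 7.69 in WT mice. The groups did not overlap. The mean was 8.20 ± 0.14 in KO cells and 7.45 ± 0.22 in WT cells, or 1.68-fold, and did not pass the threshold (limma adjusted p = 0.0793). Without WT replicate 1 it did, at an adjusted p of 0.0498 and a log2 fold change of 0.72. Cyclic loess normalization gave a lower log2 fold change, 0.49 in place of 0.75 (adjusted p = 0.188).

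Cebpd, a family member induced in inflammation, had log2 signals of 6.79, 7.40 and 6.93 in KO mice and 6.41, 6.08 and 5.91 in WT mice. Its groups were 0.38 apart at the nearest point. The mean was 7.04 ± 0.32 in KO cells and 6.13 ± 0.25 in WT cells, a log2 fold change of 0.91 (SE 0.21, limma adjusted p = 0.0841). Without WT replicate 1 the value was 1.04 and passed (adjusted p = 0.0319). Cyclic loess normalization left it at 0.86 (adjusted p = 0.1).

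Cebpb, which serves emergency granulopoiesis, had log2 signals of 7.62, 7.36 and 7.14 in KO mice and 6.53, 7.10 and 6.72 in WT mice. The lowest KO mouse and the highest WT mouse were 0.04 apart, so the separation is narrow. Its log2 fold change of 0.59 (SE 0.20) did not pass limma (adjusted p = 0.156), nor did it under any of 15 alternative settings.

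Cebpg encodes a short family member that lacks an activation domain of its own and pairs with other C/EBP proteins. It had log2 signals of 8.02, 8.02 and 8.11 in KO mice and 7.54, 7.59 and 7.85 in WT mice. The KO mice were close together (SD 0.05) and above the WT mice (SD 0.17), 0.39 apart in their means (limma adjusted p = 0.178). The median of the brightest genes was 0.30. Cebpg had 0.33 without WT replicate 1, against a median of 0.13 for the brightest genes, and under cyclic loess normalization Cebpg had 0.13. Of the 5 family members, Cebpg had the smallest fold change and Cebpe the largest in these arrays.

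Spi1, the PU.1 gene, had log2 signals of 9.56, 9.70 and 9.31 in KO mice and 8.27, 8.76 and 9.03 in WT mice. The groups did not overlap, and WT replicate 1 was the lowest of the 6. The mean was 9.52 ± 0.20 in KO cells and 8.69 ± 0.38 in WT cells, or 1.79-fold, which did not pass limma (adjusted p = 0.102). Without WT replicate 1 the log2 fold change was 0.63, against 0.84 with it (adjusted p = 0.0609), and with cyclic loess normalization it was 0.53.

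Gfi1, the zinc finger repressor of the granulocyte branch, had log2 signals of 6.72, 6.65 and 6.73 in KO mice and 5.98, 5.88 and 6.33 in WT mice. KO mice differed among themselves by no more than 0.09, and all lay above the WT mice. The log2 fold change was 0.64 (SE 0.16, limma adjusted p = 0.096). It was 0.70 with quantile and 0.64 with cyclic loess normalization, neither past the threshold.

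Klf4, a Krüppel-like factor of monocyte differentiation, had log2 signals of 5.42, 5.56 and 5.03 in KO mice and 5.19, 5.15 and 5.43 in WT mice. The ranges overlapped, and the lowest value of all was a KO mouse. The log2 fold change was 0.08 (SE 0.18, limma adjusted p = 0.774) and turned to -0.028 without KO replicate 2. For the members other than Klf4 no alternative setting turned the sign. KO replicate 3 was the lowest KO mouse for 6 of the 9 genes, and WT replicate 3 was the highest WT mouse for 6.

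**Figure D2:**
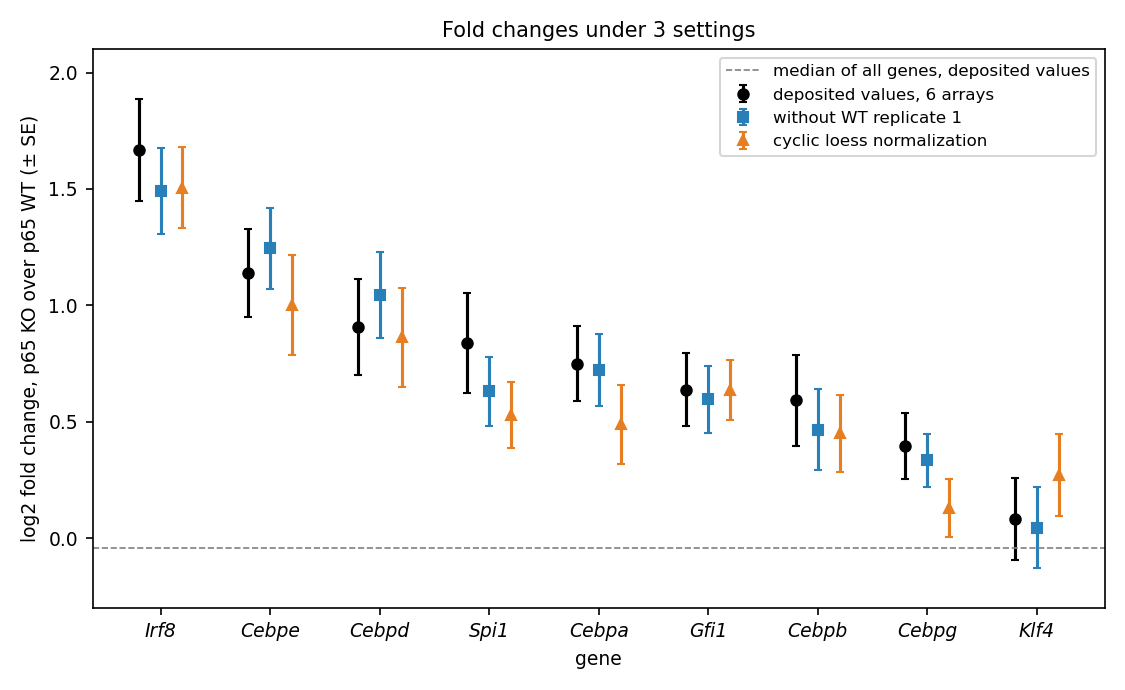
Log2 fold change of p65 KO over p65 WT (y axis, with SE from limma) for the 9 genes (x axis), from all 6 arrays as deposited, without WT replicate 1 and after cyclic loess normalization. Irf8 stays between 1.49 and 1.67 in the 3 settings, while cyclic loess normalization brings Spi1 to 0.53, Cebpa to 0.49 and Cebpg to 0.13.

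Whether the members changed by unequal amounts was asked within each array, as the difference of log2 signals of 2 genes. The size of such a difference depends on the probes, so that only its change between groups can be read. Brighter genes had higher fold changes, so the change was also read under cyclic loess normalization for the pairs with Irf8. In all 10 pairs were compared, and the two-sided exact permutation test over 3 against 3 mice cannot give p below 0.1. After Benjamini-Hochberg adjustment over the pairs the lowest value found was 0.2. No pair can therefore pass 0.05.

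Irf8 minus Cebpa was -0.03, -0.14 and -0.37 in KO mice and -1.40, -0.86 and -1.04 in WT mice. The groups were apart, and Irf8 gained 0.92 on Cebpa (exact permutation p = 0.1, adjusted 0.2), or 0.77 without WT replicate 1. Irf8 minus Gfi1, the monocyte factor against the granulocyte repressor, averaged 1.31 ± 0.33 in KO cells and 0.28 ± 0.25 in WT cells (SD, n = 3 each). This difference of 1.03 was likewise apart in every mouse (exact permutation p = 0.1, adjusted 0.2). Klf4 minus Irf8 was -2.80, -2.60 and -2.63 in KO mice and -0.81, -1.25 and -1.22 in WT mice, so Klf4 lost 1.59 on Irf8 (exact permutation p = 0.1, adjusted 0.2). Under cyclic loess normalization the change was 1.02 for Irf8 minus Cebpa, 0.87 for Irf8 minus Gfi1 and -1.24 for Klf4 minus Irf8.

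Cebpe minus Cebpa changed by 0.39 with overlapping groups (exact permutation p = 0.2, adjusted 0.286), and Cebpa minus Cebpb by 0.16 (exact permutation p = 0.8), which turned to -0.10 without WT replicate 2. Cebpa minus Cebpg averaged 0.14 ± 0.19 in KO cells and -0.21 ± 0.11 in WT cells, with the groups apart. Spi1 minus Gata1 was 0.48, 1.26 and 0.17 in KO mice and 0.18, -0.08 and 0.62 in WT mice, with overlap, and Spi1 minus Gata2 (change of 0.52) and Cebpa minus Gata2 (0.43) overlapped too. These changes depended on single mice, since Spi1 minus Gata1 changed by 0.40 with all mice and by 0.089 without KO replicate 2. Spi1 minus Gata2 changed by 0.34 without WT replicate 2, and Cebpa minus Gata2 by 0.12 without WT replicate 2 and by 0.69 without WT replicate 1. Gfi1 gained 0.60 on Gfi1b, its relative of the erythroid and megakaryocyte lines, with the groups apart (exact permutation p = 0.1, adjusted 0.2). That gain was 0.37 without WT replicate 2.

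**Figure D3:**
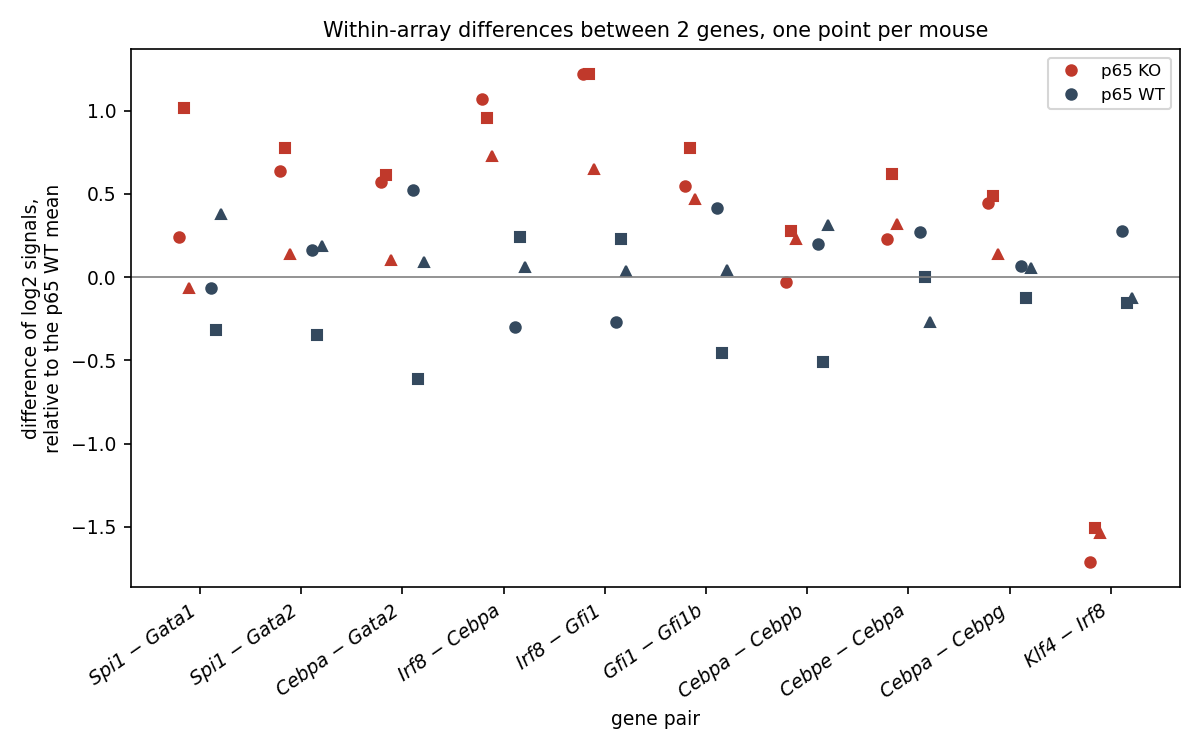
Difference of log2 signals between 2 genes within each array (y axis, shifted so that the WT mean of each pair is 0) for 10 gene pairs (x axis), with KO mice in red to the left of WT mice in dark and circle, square and triangle for replicates 1, 2 and 3. KO and WT mice are apart for the 3 pairs with Irf8, for Gfi1 minus Gfi1b and for Cebpa minus Cebpg, and overlap for the other 5.

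The partners and relatives of the members were counted on lists made by hand from general knowledge. The counts below stand against 0.818% of all genes called in either direction and 21.6% with an unadjusted p below 0.05. Among 14 measured partners, antagonists and regulators of C/EBP proteins 1 rose and 0 fell, with a median log2 fold change of 0.07, or -0.0077 without WT replicate 1. Nfil3, a basic leucine zipper repressor, was the 1 that rose, with log2 signals of 6.07, 6.55 and 5.80 in KO mice and 4.61, 5.05 and 4.91 in WT mice. The groups did not overlap, and the log2 fold change was 1.28 (SE 0.22, limma adjusted p = 0.0476). The call was lost without KO replicate 1, 2 or 3 (adjusted p of 0.231, 0.217 and 0.11) and without WT replicate 2 or 3 (0.0681 and 0.0868), and under quantile normalization (0.0665). The log2 fold change stayed between 1.08 and 1.46 with any single array left out.

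Of 22 PU.1 partners, antagonists and ETS relatives 0 passed limma in either direction, 3 had an unadjusted p below 0.05, and the median was 0.12, or -0.015 without WT replicate 1. Zeb2, a zinc finger repressor gene, came nearest at 0.65 (limma adjusted p = 0.18), then the AP-1 gene Junb at 0.51 (adjusted p = 0.185). Zeb2 had 0.37 and Junb 0.32 without WT replicate 1. Gata1 had 0.44 with overlapping groups. Gata2 had 0.32, also with overlap, and 0.034 without WT replicate 1.

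Of 10 other interferon regulatory factor genes and their binding partners 0 passed limma, 2 had an unadjusted p below 0.05, and the median was 0.24, or 0.06 without WT replicate 1. Irf7, itself induced by interferon, had log2 signals of 9.18, 7.91 and 7.25 in KO mice and 6.26, 6.72 and 7.04 in WT mice, and its log2 fold change of 1.44 did not pass (limma adjusted p = 0.14). KO replicate 1 was the highest mouse for Irf7, by 1.27, while for Irf8 the same mouse was 0.08 above KO replicate 2. Irf5 had -0.48 (adjusted p = 0.215).

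Of 13 measured genes of the GFI1 family and its corepressor complexes 0 passed limma, 0 had an unadjusted p below 0.05, and the median was 0.08, or 0.05 without WT replicate 1. Kdm1a, the LSD1 demethylase gene, had 0.31 and Hdac3 0.42, against 0.19 and 0.23 without WT replicate 1, and Kdm1a turned to -0.011 under cyclic loess normalization. Gfi1b had 0.04 and turned to -0.22 under quantile and cyclic loess normalization. Of 16 other Krüppel-like factors 0 passed limma, 2 had an unadjusted p below 0.05, and the median was 0.06 (0.027 without WT replicate 1), from -1.29 for Klf12 (limma adjusted p = 0.104) to 0.54 for the erythroid factor Klf1. Of 24 erythroid, megakaryocyte and lymphoid lineage factors 0 passed limma, 1 had an unadjusted p below 0.05, the median was 0.04 (-0.083 without WT replicate 1), and Bcl11b, a T cell factor, had -0.29. These lists were chosen with earlier results of these data known, and they share genes.

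Genes that act downstream of the members were counted on 3 lists. Of all genes 0.687% were called higher and 0.13% lower. On a list of 24 measured early granulocyte and monocyte genes, many of them targets of C/EBPα or PU.1, 14 rose and 0 fell, and the median log2 fold change was 1.20. Of the 24, 19 are in the brightest of the 3 equal groups of genes, whose own median was 0.30. Under cyclic loess normalization the median of the list was 0.91. Hp (haptoglobin), Elane (neutrophil elastase), Ctsg (cathepsin G) and Igsf6, a membrane protein gene of myeloid cells, had the lowest p. Elane had log2 signals of 11.0, 11.1 and 10.8 in KO mice and 6.58, 7.27 and 7.22 in WT mice, and Igsf6 rose by 2.33 (log2 units, SE 0.14), at a limma adjusted p of 0.000665. Ctsg rose by 2.80 and Hp by 3.86 in the same units. The count of 14 became 7, 8 and 8 without KO replicates 1, 2 and 3 and 16, 9 and 7 without WT replicates 1, 2 and 3.

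The second list held late granule and neutrophil genes, several of them controlled by C/EBPε. Of 15 measured 1 rose and 0 fell, and the median was -0.26. An unadjusted p under 0.05 was found for 4 (2 higher and 2 lower), against 21.6% of all genes in either direction. For 6, every KO value lay below every WT value, where 15.4% of all genes showed this. Of the 15, 7 are in the dimmest of the 3 equal groups of genes, whose own median was -0.22. The list's median was 0.096 without those dim genes and -0.12 without WT replicate 1, so it gives no settled direction. Lcn2 (lipocalin 2) was the 1 that rose, with log2 signals of 8.11, 8.43 and 7.65 in KO mice and 5.60, 5.47 and 4.99 in WT mice (log2 fold change 2.71, limma adjusted p = 0.00335). With the replicate block 2 passed, Lcn2 and Cxcr2.

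On a list of 24 measured monocyte and dendritic cell genes, several of them targets of IRF8, KLF4 or PU.1, 8 rose and 0 fell, with a median of 0.62. Ly86, which encodes the MD-1 partner of a Toll-like receptor relative, had log2 signals of 8.63, 8.76 and 8.11 in KO mice and 5.39, 5.26 and 5.65 in WT mice. Ms4a6c, a membrane protein gene, rose by 2.50, Mpeg1 (a pore-forming protein of phagocytes) by 2.17 and F13a1 (the coagulation factor XIII A chain) by 2.50 in log2 units. The count of 8 became 3, 4 and 6 without KO replicates 1, 2 and 3 and 12, 7 and 4 without WT replicates 1, 2 and 3. Of the 24 genes 4 are also on another list, and 1 of them, Csf1r, is on the early one. These lists were drawn up with earlier results of the same arrays known, so they are no independent evidence of a direction.

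**Figure D4:**
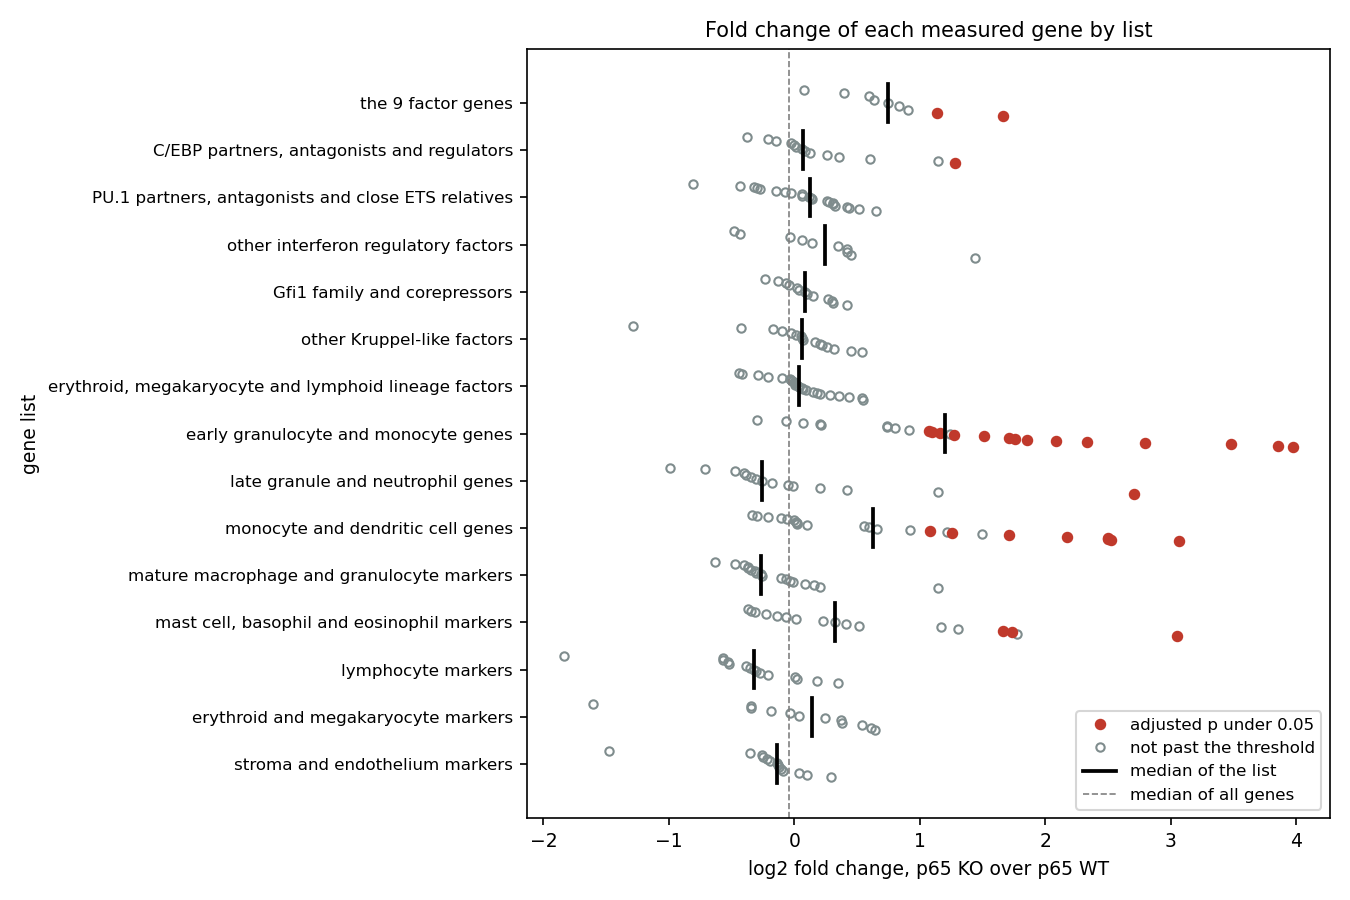
Log2 fold change of p65 KO over p65 WT (x axis) of each measured gene of the 9 factor genes and 14 further lists (y axis), with filled red points for genes past an adjusted p of 0.05, open points for the others, a black line at each list's median and a dashed line at the median of all genes. Red points gather in the early granulocyte and monocyte list (14) and the monocyte and dendritic cell list (8), while the lists of partners and relatives lie around 0.

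Markers of other cells were measured beside the members. Their counts stand against 0.687% of all genes called higher, 0.13% called lower and 21.6% with an unadjusted p below 0.05. The gate was set against lineage markers, so a sort without carry-over would remove most mature granulocytes, macrophages, lymphocytes and red cell precursors. Of 17 mast cell, basophil and eosinophil markers 3 rose (Fcer1a, Ms4a2 and Hdc, by 3.05, 1.73 and 1.66 in log2 units) and 0 fell, and the mean log2 signal of the list was 6.25 to 6.76 in KO mice and 5.73 to 6.03 in WT mice. The count of 3 became 1 without any single KO mouse or WT replicate 3, and 4 without WT replicate 1, and it was 5 with the replicate number as a block. Of 18 mature macrophage and granulocyte markers 0 passed limma, 2 had an unadjusted p below 0.05, and the list's mean ran from 5.18 to 5.26 in KO mice and from 5.16 to 5.60 in WT mice. Its median log2 fold change was -0.26, or -0.076 without WT replicate 1. It was -0.038 without the dimmest group of genes, which holds 8 of the 18 and had a median of -0.22 itself. Of the 18, 8 are also on another list, as are 8 of the 15 late granule and neutrophil genes. Cxcr2 is on both, so these lists are not independent of each other. Cxcr2, a neutrophil chemokine receptor gene, stood at 1.14 on the log2 scale (limma adjusted p = 0.0531, 0.0286 without WT replicate 1 and 0.0211 with the replicate block), and Cd5l, a macrophage gene, had -0.63 (adjusted p = 0.106). Of 15 lymphocyte markers 0 passed limma and 5 had an unadjusted p below 0.05, all lower, with list means of 4.80 to 4.96 in KO mice and 4.98 to 5.41 in WT mice, and Cd3d (-0.57) and Ncr1 (-0.53) had the lowest p. Cd3d passed without WT replicate 1 (adjusted p = 0.0492), and 8 of the 15 are in the dimmest group of genes. Of 12 erythroid and megakaryocyte markers 0 passed limma and 4 had an unadjusted p below 0.05, of which 2 were higher and 2 lower, with list means of 8.18 to 8.61 in KO mice and 8.07 to 8.62 in WT mice, and the red cell gene Slc4a1 had -0.34 and the erythroid factor gene Klf1 0.54. Of 14 stroma and endothelium markers 0 passed limma and 1 had an unadjusted p below 0.05, with list means of 5.33 to 5.35 in KO mice and 5.41 to 5.67 in WT mice, and Emcn (-1.48) and Dcn (-0.35, or -0.18 without WT replicate 1) had the lowest p. Emcn, an endothelial sialomucin gene, passed with the replicate block (adjusted p = 0.0283). Of the 14 stroma and endothelium markers, 7 are in the dimmest group of genes. The part of the mast cell and basophil genes in the rise of Irf8 and Cebpe was not tested.

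For the 8 genes whose groups were apart, the genes most alike over the 6 arrays were looked up by Pearson's r. The 6 arrays fall into 2 groups, so a high r largely restates that a gene is higher in KO mice. Irf8 was most like Plod3, a collagen-modifying enzyme gene (r = 0.9994), and Spcs2, a signal peptidase gene (r = 0.9972). Cebpe was most like Ston2 (r = 0.9905) and the leukocyte surface gene Cd53 (r = 0.9904). Cebpa was most like Med10 and Abhd17b, Cebpb like Bst2 and Gpc1, Cebpd like Hfe and Ppp1r8, Cebpg like Trip4 and Fam162a, Spi1 like Med26 and Tmed7, and Gfi1 like the mitochondrial ribosomal protein genes Mrpl41 and Mrps23, with r from 0.9811 to 0.9995.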

How the data were processed

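Single arrays were made from sorted bone marrow cells of 3 p65 knockout and 3 p65 wild-type mice, grouped by sample title. Per the labels' protocols, cells were sorted into lysis buffer and RNA was amplified with a NuGEN whole-transcriptome kit. The authors deposited 1 table of log2 values, made with RMA according to the submitters' processing notes, which also list Partek and Affymetrix Expression Console and give no versions. The sources used here do not say whether all arrays were normalized together. The design text names an exon array, while the probe annotation supplied is of another Affymetrix platform, and rows were named through that annotation. Of 35557 rows, 21789 had 1 gene symbol, 1621 several and 12147 none listed. The row with the highest mean was kept for 999 genes with several rows. The groups were compared in R 4.3.3 with limma 3.58.1, whose model held the group alone and left 4 residual degrees of freedom. Its two-sided moderated p was adjusted by Benjamini-Hochberg over 19938 genes, with a threshold of 0.05.

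The members, lists and tests were chosen with earlier results of these data known. Named genes were all members, the genes of the pairs, the sort genes, up to 4 called genes (otherwise 2) with the lowest p in each list, and the most alike genes. Same-numbered arrays deviated together (r = 0.368, 0.119 and 0.162), which met the rule of r over 0.1 in every pair. Differently numbered arrays also passed that rule, at 0.195 (KO 3 with WT 2) and 0.183 (KO 2 with WT 3), above the same-numbered 0.119 and 0.162. The labels do not say what a number marks, so pairing by number is not established. In simulated arrays of 19938 genes the test found 51.6% of genes changed by 1 and 91.4% of those changed by 2 on the log2 scale, with 6.2 false calls per run. The simulated noise was independent between genes, with no outlying array and no trend with signal level. The deposited arrays differ in this, so these rates need not hold for them. Alternatives were the replicate block, quantile and cyclic loess normalization, median centring, leaving out the dimmest of 3 equal groups of genes, a variance trend, robust variance, array weights, averaging a gene's rows, and leaving out each array. The number of arrays limits the precision.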

Additional observations from a re-analysis of the deposited data

How the results depend on the processing

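Taking the replicate number as a block gave 372 genes in place of 163, and among the members the same 2, Irf8 and Cebpe. Of the other named genes, apart from the most alike genes, the block added Cxcr2 and Emcn and changed no other call. The most alike genes were not examined under the block. The count over all genes was 104 with quantile normalization, 505 without the dimmest of 3 equal groups of genes and 1599 with array weights, and it ran from 21 to 929 with 1 array left out. Of the 9 members 1 (Irf8) passed with quantile and 1 (Irf8) with cyclic loess normalization, 4 passed without the dimmest genes and 6 with array weights. With 1 array left out the members past the threshold ran from 0 to 4, with 4 reached without WT replicate 1 and 0 without any other array. Fewer arrays or fewer genes tested enter some of these counts, and the cause was otherwise not tested. Over the 15 alternatives the log2 fold change of Irf8 stayed between 1.48 and 1.84 and passed in 10, and that of Cebpe between 0.97 and 1.28 and passed in 8. Centring arrays on their medians moved the median log2 fold change of all genes to 0.10, against -0.04 as deposited. Signs turned for small values. Flt3 became -0.097 with quantile and -0.18 with cyclic loess normalization and -0.12 with array weights, and ran from -0.093 to 0.29 with 1 array left out. Gfi1b became -0.22 with quantile and -0.22 with cyclic loess normalization and -0.19 with array weights, and ran from -0.21 to 0.18 with 1 array left out. Kdm1a became -0.011 with cyclic loess normalization. With 1 array left out Klf4 ran from -0.028 to 0.23 and Cebpa minus Cebpb from -0.097 to 0.31.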
